A study of Mus musculus with 16 samples.

Results

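Transcripts of 10 genes for Paneth cell and antimicrobial proteins (Lyz1, Mmp7, Ang4, Itln1, Mptx1, Mptx2, Reg3b, Reg3g, Reg4 and Dmbt1) were followed in mouse intestinal organoids. The genes were listed by symbol and matched to 10 of the 46078 Ensembl identifiers in the count tables, and all 10 passed the filter on low counts. Organoids are closed epithelial structures grown from crypts in a gel, and RNA of 16 libraries had been sequenced to ask how Apc mutant and wild type cells influence each other. All cultures were labelled C57BL6 and received EGF, R-spondin and Noggin. Wild type organoids carried the Lgr5-EGFP-IRES-CreERT2 allele and the red mCherry construct. Mutant organoids carried a tamoxifen-inducible Cre, driven by Lgr5 or Villin, with Apc fl/fl recombined by 4OH-tamoxifen in culture, and the mutant line with the Lgr5 allele also carried the green Venus construct. Which Cre line a mutant library came from is not in its label, and the labels do not say how many clones or mice the cultures stand for.

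The libraries formed 6 groups. On day 2, 2 libraries of untreated Apc mutant organoids and 2 of untreated wild type ones were made. The other 12 libraries came from conditioned medium, the medium of other organoid cultures, with 3 libraries in each of 4 groups titled APCCM or WTCM on day 2 or day 4. The genotype label of the APCCM libraries is Apc mutant and that of the WTCM libraries is WT, while the treatment label of all 12 is medium from Apc mutant cultures. The titles can also be read as the source of the medium, so the groups are called APCCM and WTCM libraries throughout. No label says that libraries of a group came from separate cultures, so p-values measure the spread between these libraries, which may be technical.

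Paneth cells sit at the base of small intestinal crypts among the stem cells and release granules of antimicrobial proteins into the crypt lumen. Lysozyme, encoded by Lyz1, cleaves the bacterial cell wall, Mmp7 (matrilysin) cuts the precursors of mouse alpha-defensins into their active form, and Ang4 is a ribonuclease of the angiogenin family. Itln1 encodes intelectin, a lectin that binds bacterial glycans and is made by Paneth and goblet cells, and Mptx1 and Mptx2 encode secreted mucosal pentraxins. Reg3b, Reg3g and Reg4 belong to the Reg family of secreted C-type lectins, and Reg3g binds the peptidoglycan of Gram-positive bacteria. Dmbt1 encodes a large secreted glycoprotein with scavenger receptor cysteine-rich domains that binds bacteria. Paneth cell maturation needs Wnt signals, which act through beta-catenin and TCF/LEF factors, and Apc protein is part of the complex that removes beta-catenin.

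In GRCm38 coordinates of the GENCODE M21 annotation, all 10 are protein-coding genes and annotated exons were used for their lengths. The enzyme genes are Lyz1 (ENSMUSG00000069515, chr10:117287797-117292868, minus strand), Mmp7 (ENSMUSG00000018623, chr9:7692090-7699585, plus) and Ang4 (ENSMUSG00000060615, chr14:51763878-51773590, minus). Itln1 (ENSMUSG00000038209, chr1:171518122-171535294, minus), Mptx1 (ENSMUSG00000026531, chr1:174330518-174332873, plus) and Mptx2 (ENSMUSG00000079180, chr1:173274382-173277777, minus) lie on one chromosome. Reg3b (ENSMUSG00000071356, chr6:78370657-78373466, plus) and Reg3g (ENSMUSG00000030017, chr6:78466269-78468872, minus) lie close together. Reg4 (ENSMUSG00000027876, chr3:98222156-98236748, plus) and Dmbt1 (ENSMUSG00000047517, chr7:131032053-131121630, plus) lie elsewhere.

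The sequences below are shown for the members whose values set them apart from a near copy or from the other members. RefSeq promoter windows of build GRCm38.p6, from 250 bases before to 50 bases after the start, were matched for 9 of the 10 genes. Mmp7 was the only member that was higher in untreated mutant organoids. Its first RefSeq window held the TCF/LEF core letters CTTTGAT on the opposite strand, from the fifth transcribed base on. The 30 bases across its start, at chr9:7692075-7692104 on the plus strand, read as follows, with the match in capitals.
Mmp7: ccagcccctgtcaggaaacATCAAAGtagc
Reg3b and Reg3g, which lie on chromosome 6 and rose together with day, share 173 of 247 aligned bases (70.0%) in the 250 bases before the start. Aligned in the same way, Reg3b and Mptx1 shared 59.55% and Lyz1 and Ang4 56.04%. Their 250 bases before the start are shown with the matches in capitals, a STAT motif (TTCNNNGAA) in Reg3b at chr6:78370635-78370884 on the plus strand and the letters CTTTGAT in Reg3g at chr6:78468875-78469124 on the minus strand. Most of the Reg3b stretch, with its match, lies inside the gene as GENCODE M21 annotates it, since the RefSeq start differs.
Reg3b: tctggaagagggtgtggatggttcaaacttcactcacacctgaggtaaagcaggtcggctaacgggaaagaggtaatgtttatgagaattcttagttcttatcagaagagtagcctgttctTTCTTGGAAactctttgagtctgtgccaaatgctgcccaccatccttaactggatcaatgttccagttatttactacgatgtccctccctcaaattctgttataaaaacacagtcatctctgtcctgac
Reg3g: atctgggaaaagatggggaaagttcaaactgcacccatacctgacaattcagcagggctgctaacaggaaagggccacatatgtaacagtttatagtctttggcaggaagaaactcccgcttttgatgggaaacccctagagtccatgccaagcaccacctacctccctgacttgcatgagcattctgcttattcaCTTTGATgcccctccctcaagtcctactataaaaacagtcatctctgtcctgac
The pair Mptx1 and Mptx2, both on chromosome 1, went in opposite directions with day in APCCM libraries. Their 250 bases before the start, at chr1:174330268-174330517 on the plus strand and chr1:173277757-173278006 on the minus strand, share 197 of 228 aligned bases (86.4%). Capitals mark the bases that differ or lie outside the alignment. The last bases of the Mptx2 stretch lie inside the gene as GENCODE M21 annotates it.
Mptx1: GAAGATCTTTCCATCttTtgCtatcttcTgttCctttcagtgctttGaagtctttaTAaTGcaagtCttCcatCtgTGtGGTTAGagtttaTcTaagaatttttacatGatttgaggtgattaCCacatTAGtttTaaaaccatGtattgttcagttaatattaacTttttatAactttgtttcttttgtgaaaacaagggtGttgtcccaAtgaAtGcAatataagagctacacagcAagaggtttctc
Mptx2: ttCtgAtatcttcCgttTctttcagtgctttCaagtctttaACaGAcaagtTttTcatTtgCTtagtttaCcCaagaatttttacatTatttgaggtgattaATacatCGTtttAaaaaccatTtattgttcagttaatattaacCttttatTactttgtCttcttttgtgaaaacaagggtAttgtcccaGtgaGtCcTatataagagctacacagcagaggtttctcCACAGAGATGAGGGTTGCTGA

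Both strands of the windows of these 9 genes, with a second window for Mmp7, were searched for these letters. CTTTGAT stood in the windows of Mmp7 (chr9:7692094-7692100) and Reg3g (chr6:78468922-78468928, from base -54), and in 3.73% of all 32851 windows of 300 bases. In the second Mmp7 window, which has a later start, the same match begins at base -247. Of these genes, Mmp7 was higher in untreated mutant organoids, while Reg3g was 28.1-fold lower. TTCNNNGAA stood in those of Reg3b (from base -129) and Ang4 (from base -192), and in 8.30% of all windows. The E-box CAGCTG stood in that of Lyz1 (from base 7), and in 16.3% of all. An NF-kB motif, held by 1.47% of all windows, stood in no window of the 9 genes. A match of letters is a description and was not tested for binding.

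Reads with several alignments were counted in no gene, so members with near copies are less certain. Of all 50-base stretches of the Mptx1 transcript, 82.1% occur in no other gene, and for Mptx2 the share was 82.0%, because the transcripts of the pair are 92.4% identical. Lyz1 had 83.9% of such stretches to itself and shared the rest with Lyz2 (96.0% identical), Mmp7 had 92.6%, Ang4 95.3% and Itln1 99.0%. Reg3b, Reg3g, Reg4 and Dmbt1 shared none.

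Total gene counts ranged from 17986815 to 29152692 in the conditioned medium libraries and from 8325979 to 13027701 in the untreated ones. The share of reads that aligned to several places was 36.5 to 38.9% without and 26.5 to 33.3% with conditioned medium. Earlier results of these data showed that the untreated libraries also differ from the others in RNA content and sex chromosome expression. Untreated and conditioned medium levels are therefore set side by side and were not tested against each other. The first WTCM library of day 4 stood apart from the other libraries of its group (chi-square per degree of freedom 43.9 and 46.4, against 3.49 to 6.55 in all other pairs). For the comparisons that use it, the members called are given with and without it. Fold changes without it are given for some members only, and the list counts and sums of day 4 include it. Apc, counted over the whole gene and not over the deleted part, was 217 to 249 CPM, the count scaled to a common library total, in untreated mutant and 69.3 to 76.1 in untreated wild type libraries, so it does not check the deletion. In conditioned medium Apc was called in neither label comparison. The Wnt target Axin2 was 724 CPM in untreated mutant and 165 CPM in untreated wild type organoids on average, but 269 CPM in APCCM and 345 CPM in WTCM libraries on day 2, which goes against the genotype label of the APCCM libraries. Immune and stromal marker genes were low in all groups: the 8 immune markers summed to 11.4 to 19.7 CPM and the 8 stromal and endothelial markers to 1.11 to 4.44 CPM per library, with Col3a1 at 0 counts in all 16.

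**Figure D1:**
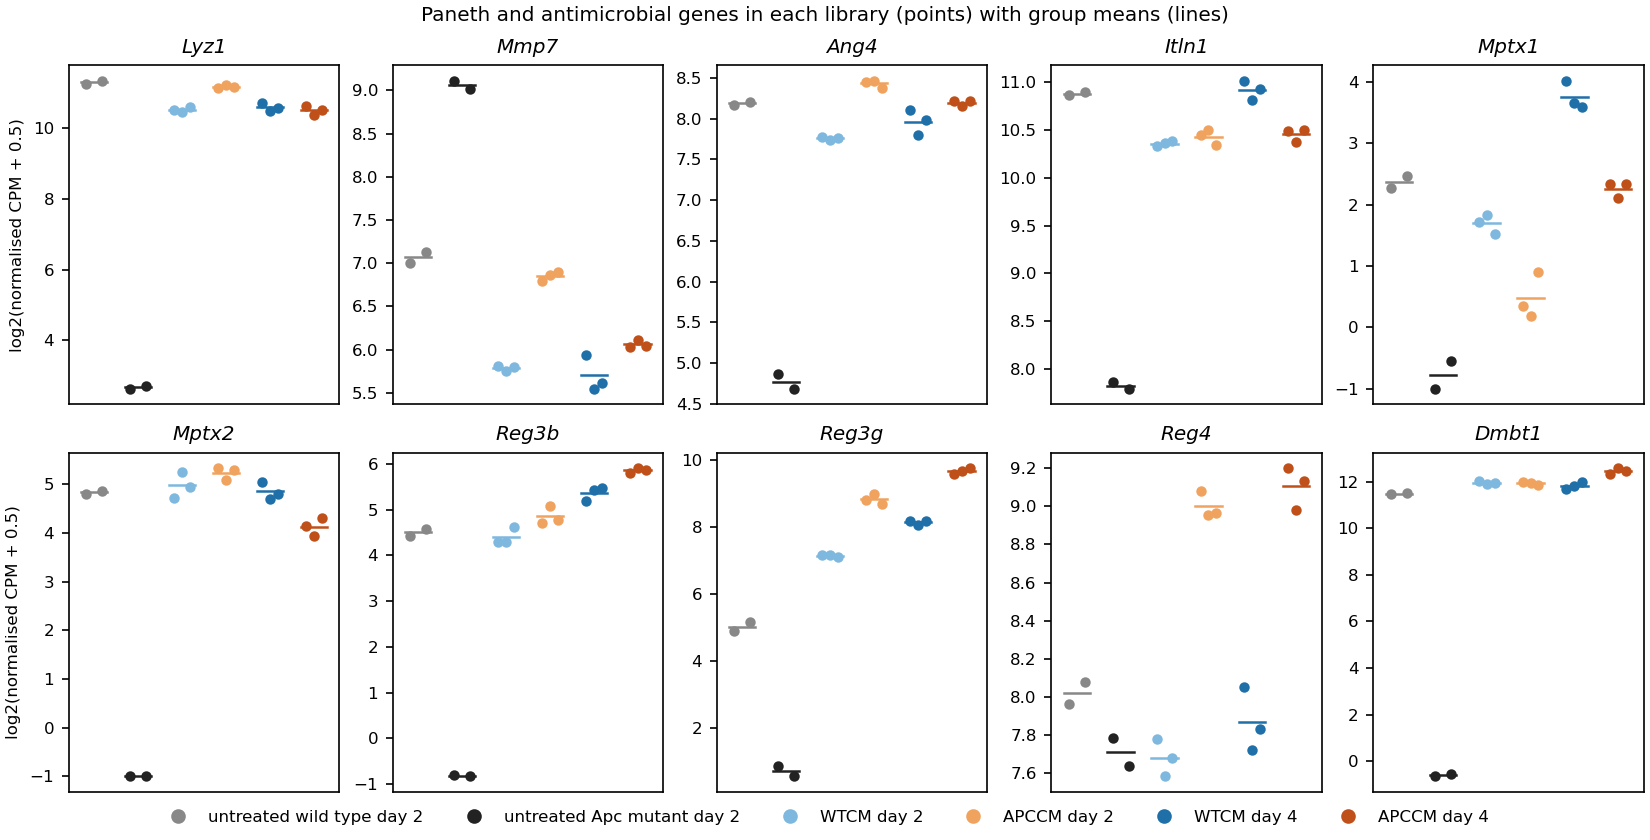
Level of each of the 10 genes in every library, as log2 of the normalised CPM plus 0.5 (vertical axis, scaled separately for each gene), with 1 point per library and a line at each group mean. In the untreated mutant organoids 9 genes lie at the bottom or with the lowest groups, while Mmp7 lies at the top.

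Untreated mutant organoids had few transcripts of most Paneth and antimicrobial genes. Mptx1, Mptx2, Reg3b and Dmbt1 had 0 to 5 counts in the mutant group, Lyz1 was 433-fold lower than in wild type, Reg3g, Ang4 and Itln1 were 28.1-fold, 10.8-fold and 8.34-fold lower, and Mmp7 was 4.01-fold higher. Together the 10 genes took 0.122 to 0.130% of gene counts in untreated mutant and 0.888 to 0.904% in untreated wild type libraries. Every test was edgeR's quasi-likelihood test, with p-values adjusted over 16510 genes by the Benjamini-Hochberg method and called under 0.05. Of the members, 9 were lower and 1 was higher, while 62.5% of all genes tested were called in this comparison (30.1% lower, 32.4% higher). With library size alone as the scaling, calls over all genes moved from 5350 higher and 4971 lower to 6553 and 3904, and the median over all genes moved to 0.167. In bulk RNA fewer cells of a type and less RNA per cell cannot be told apart.

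Among the granule enzymes, Lyz1 was 5.68 and 5.99 CPM in the mutant and 2462 and 2608 CPM in the wild type libraries. This was a log2 fold change of -8.76 (SE 0.11, adjusted p = 5.9e-27). Ang4 was 28.6 and 25.3 CPM against 287 and 295 CPM, a log2 fold change of -3.44 (SE 0.09). Mmp7 went the other way, with 553 and 518 CPM in the mutant and 128 and 140 CPM in the wild type libraries, a log2 fold change of 2.00 (SE 0.09, adjusted p = 2.8e-16). The libraries of the groups did not overlap for any of these enzymes. How many of all genes tested show no overlap was not counted, in this comparison or in those below. Per kilobase of exon, Mmp7 was the most abundant of the 10 in untreated mutant organoids (502 CPM per kilobase) and the sixth in untreated wild type (125 CPM per kilobase).

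Of the lectins and pentraxins, Itln1 was 232 and 221 CPM in mutant and 1868 and 1909 CPM in wild type libraries, a log2 fold change of -3.06 (SE 0.07). Mptx2 had 0 counts in both mutant libraries and 601 counts in the wild type ones, which is at least 288-fold lower when the mutant group is set to 3 counts in all. Mptx1 had 3 counts in the mutant group and 99 in the wild type group, a ratio of 47.5 after scaling (95% interval 15.8 to 234, covering counting error only). All 3 counts lay in the second mutant library, and the fitted log2 fold change went from -5.48 to -4.61 without the first mutant library. Without the second no count was left, and the fitted value of -9.46 is then no bound. Itln1 kept the level of a well-expressed gene in the mutant, while both pentraxins were at a few counts or none.

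In the Reg family, Reg3b had 2 counts in the mutant against 473 in the wild type group, a ratio of 340 (95% interval 93.6 to 2817). Reg3g was 1.32 and 0.978 CPM against 29.3 and 35.3 CPM, a log2 fold change of -4.81 (SE 0.18). Reg4, in contrast, was 220 and 199 CPM in mutant and 249 and 270 CPM in wild type libraries. Its fall by 0.31 on the log2 scale (SE 0.09) was called at an adjusted p of 0.0051 but not with library size alone (-0.14, adjusted p = 0.15) nor without the second mutant library (-0.23, adjusted p = 0.074). Dmbt1, the most abundant member by CPM in wild type organoids at 2837 and 2898 CPM, had 5 counts in the mutant group against 61295 (95% interval of the ratio 7554 to 54296).

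Other genes listed for Paneth cells did not all follow Lyz1. All 15 alpha-defensin genes tested were lower (of 57 listed and 29 found in the tables), among them Defa24 (log2 fold change -8.54) and Defa17 (-7.09), and all defensin counts summed to 8.19 to 8.73 CPM per mutant and 2769 to 2866 CPM per wild type library. Paralogs of the members were lower in 6 of 6 tested, including Reg1 (-13.03, from 1961 CPM) and Reg3a, with 0 counts in the mutant (at least 340-fold lower). Of 18 genes for Paneth identity and secretion, however, 11 were higher and 6 lower, with a median log2 fold change of 0.36. Some genes of this list also stand in other lists, Sox9 among the secretory lineage factors and Agr2 among the goblet markers. Its counts, here and below, therefore do not measure Paneth cells alone. Pla2g2a, the gene of a secreted phospholipase, was 259 CPM against 19.6 CPM (log2 fold change 3.73). Whether these C57BL6 organoids make an active enzyme from this RNA is not shown by read counts. Sox9, a transcription factor that Paneth cells need, rose by 1.39. Ern2 (-4.10) and Agr2 (-2.19), which serve protein folding in mucus-secreting cells, fell. The median over all genes tested was 0.

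Among the niche signals that Paneth cells send to stem cells, Wnt6 (2228 counts in mutant against 1 in wild type libraries) and Tgfa (log2 fold change 0.99) were higher and Wnt3 (-2.56) and the Notch ligand Dll4 (-2.07) were among the 4 of 8 that were lower. Of 15 transcription factors listed for the secretory lineage, 6 were higher, with Sox4 at 2.06. Lower were 7, with Spdef at -4.11 and Atoh1, which starts that lineage, at -2.10. The list also holds Hes1, which opposes the lineage, so the counts of the list do not measure the lineage. Of 17 other epithelial antimicrobial genes tested, 13 were lower, among them Pigr, the transporter of IgA (-8.92), and Lypd8 (-3.56), and 3 were higher, among them Lgals3 (1.02). Of 32 genes for sensing microbes and cytokines, 10 were higher, such as Il6st (2.80) and Tlr2 (2.48), and 14 lower, such as Ifngr1 (-1.72) and Nfkbiz (-1.90). Their median log2 fold change was 0.01. Of all genes tested, 32.4% were higher and 30.1% lower in this comparison, so the count of higher sensing genes was near that share.

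Markers of the other epithelial cell types moved in the same comparison. All 7 goblet cell markers were lower and summed to 219 to 228 CPM per mutant and 3421 to 3603 CPM per wild type library. All 8 enteroendocrine markers (4.30 to 4.46 against 451 to 452 CPM in sum, with 4 markers at 0 in the mutant), all 5 tuft cell markers and 7 of 8 enterocyte markers were lower as well. Stem cell markers were higher in 5 of 6, with Olfm4 (-12.86) the exception. The part of these shifts in the members' values was not tested.

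In conditioned medium all 10 genes were expressed in both labels, with the 10 genes together at 0.686 to 1.01% of gene counts in the 12 libraries. On day 2 the APCCM libraries had more Reg3g (3.24-fold), Reg4 (2.49-fold) and Mmp7 (2.1-fold), and also more Ang4, Lyz1 and Reg3b, than the WTCM libraries. Mptx1 was lower in APCCM, at 0.342 of the WTCM level. Itln1, Mptx2 and Dmbt1 were not called. In all, 6 members were higher and 1 was lower, while 16.7% of all genes tested were called (8.54% higher, 8.15% lower). With library size alone as the scaling the calls over all genes moved from 1410 higher and 1345 lower to 1669 and 918, and no member's call changed. Without the third APCCM library of day 2 the 2755 calls over all genes became 1725.

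Lyz1 on day 2 was 2251, 2393 and 2309 CPM in APCCM and 1457, 1404 and 1556 CPM in WTCM libraries (log2 fold change 0.65, SE 0.06, adjusted p = 1.9e-08). For Mmp7 the values were 111, 116 and 118 CPM against 55.5, 53.5 and 55.0 CPM (1.07, SE 0.07). Ang4 was 350, 353 and 332 CPM against 219, 212 and 217 CPM (0.68, SE 0.06). All 3 enzymes separated the labels without overlap, and Mmp7 showed the widest gap of the enzymes. The share of all genes that separate in this way was not counted.

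Itln1 was 1393, 1452 and 1301 CPM in APCCM and 1287, 1318 and 1337 CPM in WTCM libraries, with overlap (log2 fold change 0.07, 95% interval -0.03 to 0.18, adjusted p = 0.37). Mptx1 was low in all 6 libraries, at 0.767, 0.637 and 1.37 CPM against 2.81, 3.06 and 2.39 CPM, and the groups did not overlap (-1.55, SE 0.27, adjusted p = 0.00017). Mptx2, its near copy, overlapped between the labels, at 39.8, 33.6 and 38.7 CPM against 26.0, 37.9 and 30.3 CPM. Its log2 difference of 0.25 (95% interval 0.03 to 0.47) was not called (adjusted p = 0.13), but it was without the second WTCM library (0.41, adjusted p = 0.017), without a filter on low counts (0.25, adjusted p = 0.018) and with the replicate block (0.27, adjusted p = 0.039).

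The 3 Reg genes among the members were higher in APCCM libraries on day 2. Reg3b was 25.8, 33.4 and 27.0 CPM against 19.1, 19.0 and 24.2 CPM (log2 fold change 0.46, SE 0.10, adjusted p = 0.0020). Reg3g was 453, 508 and 415 CPM against 144, 144 and 137 CPM (1.70, SE 0.07, adjusted p = 3.0e-14). Reg4 was 541, 496 and 500 CPM against 220, 191 and 205 CPM (1.32, SE 0.07). For none of these did a WTCM library reach the lowest APCCM library. Dmbt1 overlapped between the labels, with 4069, 3941 and 3699 CPM against 4180, 3797 and 3964 CPM (-0.03, 95% interval -0.14 to 0.09).

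On day 4, 9 members differed between the labels. Reg3g (2.88-fold), Reg4 (2.35-fold), Dmbt1 (1.55-fold), Reg3b, Mmp7 and Ang4 were higher in APCCM libraries. Mptx1, Mptx2 and Itln1 were lower, and Lyz1 was not called. These 6 higher and 3 lower members compare with 15.6% of all genes called (7.83% higher, 7.80% lower). With library size alone the calls over all genes moved from 1293 higher and 1288 lower to 1744 and 928, without a change in any member's call. Without the first WTCM library of day 4, again 6 members were higher and 3 lower.

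Lyz1 on day 4 was 1575, 1326 and 1477 CPM in APCCM and 1677, 1434 and 1534 CPM in WTCM libraries, which overlapped (log2 fold change -0.09, 95% interval -0.20 to 0.03, adjusted p = 0.38). Mmp7 was 64.7, 68.7 and 65.5 CPM against 61.0, 46.3 and 48.6 CPM (0.36, SE 0.07, adjusted p = 0.0011), and 0.48 without the first WTCM library, the highest of its group. Ang4 was 298, 284 and 298 CPM against 276, 221 and 252 CPM (0.23, SE 0.06, adjusted p = 0.011). That call was lost without the second WTCM library (0.15, adjusted p = 0.094). Neither Mmp7 nor Ang4 overlapped between the labels.

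Itln1 on day 4 was 1437, 1331 and 1451 CPM in APCCM and 2075, 1803 and 1951 CPM in WTCM libraries (-0.47, SE 0.05, adjusted p = 5.4e-07; -0.42 without the first WTCM library). Mptx1 was 4.55, 3.82 and 4.56 CPM against 15.8, 12.2 and 11.6 CPM (-1.60, SE 0.16; -1.46 without that library). Mptx2 was 17.2, 14.8 and 19.4 CPM against 32.8, 25.6 and 27.6 CPM (-0.73, SE 0.12, adjusted p = 0.00011; -0.63 without that library). On this day both pentraxins and the lectin were lower in every APCCM library than in any WTCM library.

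Reg3b on day 4 was 55.3, 59.5 and 58.4 CPM in APCCM and 36.1, 43.0 and 44.0 CPM in WTCM libraries (0.49, SE 0.09, adjusted p = 0.00033; 0.41 without the first WTCM library). Reg3g was 777, 811 and 865 CPM against 290, 268 and 293 CPM (1.53, SE 0.07). Reg4 was 587, 506 and 561 CPM against 265, 211 and 228 CPM (1.23, SE 0.07). Dmbt1 was 5213, 6080 and 5616 CPM against 3331, 3588 and 3995 CPM (0.63, SE 0.06, adjusted p = 3.4e-08). The labels did not overlap for any of these 4 genes.

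**Figure D2:**
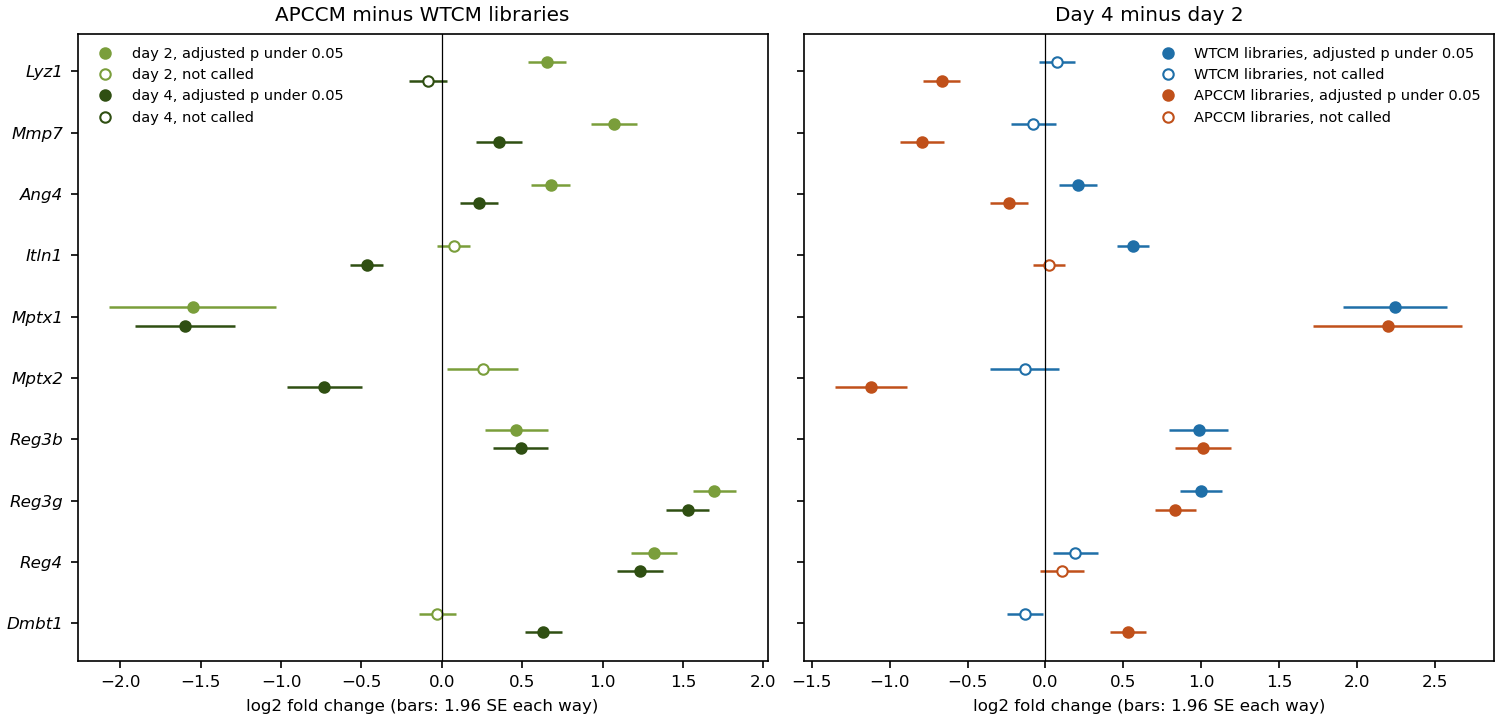
Log2 fold change of each of the 10 genes between APCCM and WTCM libraries on each day (left) and between day 4 and day 2 within each label (right), with bars for the 95% interval and filled points where the adjusted p was under 0.05. Reg3g and Reg4 lie far right of 0 and Mptx1 far left on both days in the left part, and Reg3b, Reg3g and Mptx1 lie right of 0 in both labels in the right part.

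Members of the Reg family did not share a direction between the labels. Reg1 was 809 CPM on average in APCCM and 1254 CPM in WTCM libraries on day 2 (log2 fold change -0.63, SE 0.05, adjusted p = 7.9e-09), and 1506 CPM against 1923 CPM on day 4 (-0.35, SE 0.05). Reg3a was 29.9 CPM against 56.7 CPM on day 2 (-0.92, SE 0.10) and 32.0 CPM against 70.1 CPM on day 4 (-1.14, SE 0.09). Reg3b, Reg3g and Reg4 were higher in APCCM libraries in the same comparisons. By the longest annotated transcript of each gene, Reg3b is 73.7% identical to Reg3a and 64.0% to Reg3g. The Reg3g transcript used has 2089 bases against 783 for Reg3b, so the value for this pair may not hold for transcripts of like length. No 50-base stretch of Reg3a, Reg3b or Reg3g occurs in another gene.

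**Figure D3:**
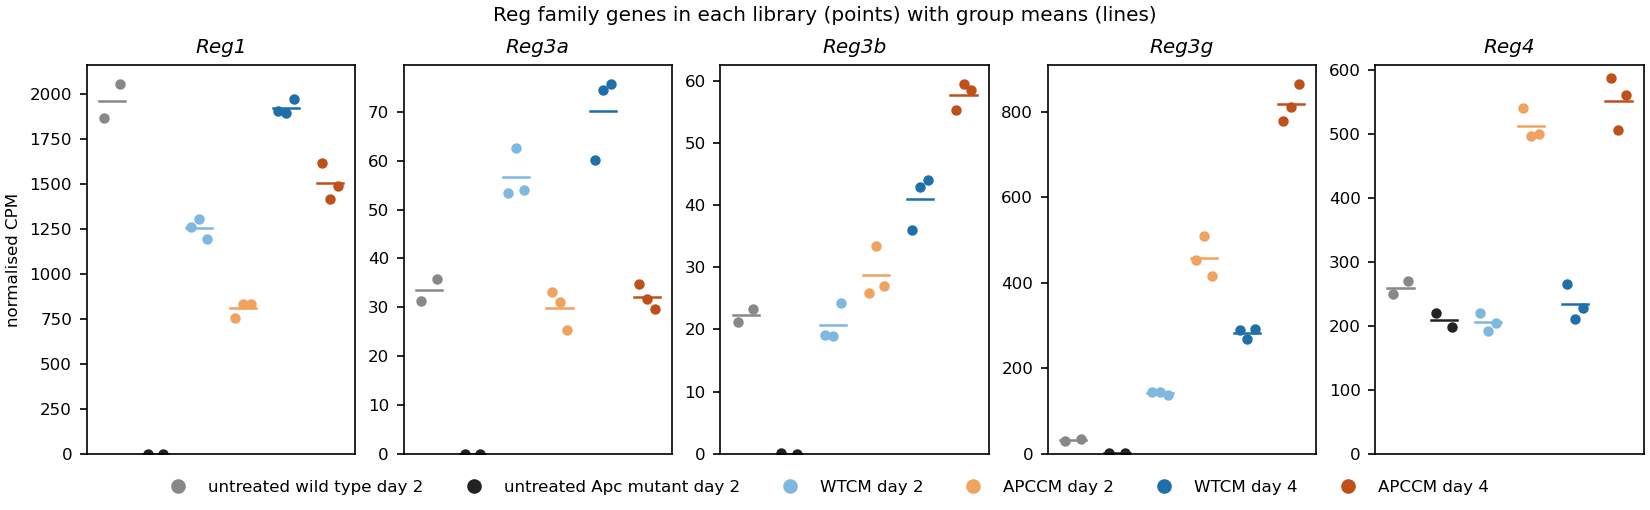
Normalised CPM of 5 Reg family genes in every library (vertical axis from 0, scaled separately for each gene), with 1 point per library and a line at each group mean. In conditioned medium Reg3b, Reg3g and Reg4 are higher in APCCM than in WTCM libraries of the same day, and Reg1 and Reg3a are lower.

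Other genes listed for Paneth cells also differed between the labels. On day 2, 6 of 15 alpha-defensin genes were higher in APCCM libraries and none lower, with Defa24 at 0.49 and AY761184 at 0.81, and the summed defensin level was 2688 to 3122 CPM against 2096 to 2151 CPM. On day 4, 3 were higher (Gm14851 at 0.91 and Defa30 at 0.23 among them) and 1 was lower (Defa17, -0.19), and the sums overlapped, at 3288 to 3348 CPM against 3071 to 3426 CPM. Of the 50-base stretches of Defa17 only 8.05% occur in no other gene, and of those of Defa24 71.9%, so single defensin values are uncertain. Genes for Paneth identity and secretion were higher in 6 and lower in 2 of 18 on day 2, and higher in 3 and lower in 6 on day 4. The prohormone convertase gene Pcsk1, which is on this list, was higher on both days (1.05 and 0.92). Enteroendocrine markers were higher too, in 7 of 8 on day 2 and 6 of 8 on day 4. Which cells the Pcsk1 transcripts came from was not tested. Ephb3 (-0.29) and Sox9 (-0.21) were lower on day 2, and Clps (-0.58) and Cd24a (-0.50) were lower on day 4.

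Among the niche signals, the EGF receptor ligand Areg was higher in APCCM libraries on both days (1.34 and 0.84), Wnt9b was lower on day 2 (-0.92), and Wnt3 (-0.45) and Dll1 (-0.25) were among 3 of 8 lower on day 4. No transcription factor listed for the secretory lineage was higher. On day 2, 5 of 15 were lower, such as Neurog3 (-0.78) and Hes1 (-0.27), of which Hes1 opposes that lineage. On day 4, 6 were lower, such as Sox4 (-0.53) and Bhlha15 (-0.83).

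Other antimicrobial genes differed in both directions, most of those called being higher in APCCM libraries. On day 2, 9 of 17 were higher and 2 lower, with a median log2 fold change of 0.52, and on day 4, 8 were higher and 3 lower, with a median of 0.24. Nos2, which makes nitric oxide, was 70.6 CPM against 8.74 CPM on day 2 (3.02, SE 0.13), and Duox2, which makes hydrogen peroxide at the cell surface, was higher by 1.63. On day 4 Zg16 (0.98) and Lgals3 (1.05) were higher. The ribonuclease gene Rnase1 was lower on both days (-0.30 and -0.71), and with it Sprr2a3 on day 2 (-0.84) and Rnase4 on day 4 (-0.57). Of 32 sensing genes, 15 were higher and 2 lower on day 2, with the NF-kB inhibitors Nfkbia (0.73) and Tnfaip3 (0.79) higher, and 7 were higher and 5 lower on day 4, with Il1rn (1.01) higher and Ifngr2 (-0.20) and Il6st (-0.24) lower.

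Goblet cell and enteroendocrine markers also differed between the labels, with Zg16 counted as a goblet marker too. On day 2 all 7 goblet markers were higher in APCCM libraries, led by Clca1 (1.61) and Zg16 (1.47), and their sums were 5655 to 6539 CPM against 4255 to 4779 CPM. On day 4, 4 of 7 were higher and none lower, and the sums overlapped (6917 to 6965 CPM against 5990 to 7465 CPM). Enteroendocrine markers were higher in 7 of 8 on day 2 (814 to 923 CPM against 487 to 510 CPM in sum) and in 6 of 8 on day 4 (1068 to 1164 CPM against 730 to 868 CPM). Stem cell markers were lower in 4 of 6 on day 2 and in 6 of 6 on day 4, with Lgr5 at -0.54 and -0.76 and Olfm4 at -0.45 and -1.05. Enterocyte markers went both ways, with 2 of 8 higher on both days and 2 lower on day 2 and 3 on day 4. Whether a shift in cell types has a part in the members' values was not tested.

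The comparison of days within a label asked how the same genes changed with time in conditioned medium. It uses the libraries already given, so it shares them with the label comparisons. In WTCM libraries 5 members were higher on day 4 than on day 2 and none was lower, against 24.1% of all genes called (12.5% higher, 11.6% lower). Mptx1 was 4.75-fold, Reg3g 2.00-fold, Reg3b 1.98-fold, Itln1 1.48-fold and Ang4 1.16-fold higher. Without the first WTCM library of day 4, 4 were higher and 1 lower. With library size alone, calls over all genes moved from 2061 higher and 1919 lower to 1616 and 2345, and no member's call changed.

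The rise of Mptx1 in WTCM libraries was 2.25 on the log2 scale (SE 0.17, adjusted p = 1.9e-09; 2.1 without that library). Reg3g rose by 1.00 (SE 0.07) and Reg3b by 0.99 (SE 0.10). Itln1 rose by 0.56 (SE 0.05, adjusted p = 4.9e-08; 0.52 without that library). The rise of Ang4 by 0.21 (SE 0.06, adjusted p = 0.015) was lost without that library (0.13, adjusted p = 0.13) and without the second WTCM library of day 2 (0.20, adjusted p = 0.057). Lyz1, at 0.07, was not called, and neither was Mptx2 at -0.13. Mmp7, at -0.08, was called only without the first library of day 4 (-0.20, adjusted p = 0.022). Reg4 (0.19, adjusted p = 0.061) and Dmbt1 (-0.13, adjusted p = 0.11) missed the threshold, and with the replicate block both passed it (0.18 and -0.14, adjusted p = 0.0071 and 0.040).

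In APCCM libraries Lyz1, Mmp7 and Ang4 fell with day while Reg3b and Reg3g rose. There, 4 members were higher and 4 lower on day 4, against 23.9% of all genes called (12.2% higher, 11.7% lower). With library size alone, calls over all genes moved from 2007 higher and 1939 lower to 1717 and 2173, with no change in a member's call. Lyz1 fell by 0.67 (SE 0.06, adjusted p = 1.3e-08), Mmp7 by 0.79 (SE 0.07) and Ang4 by 0.24 (SE 0.06, adjusted p = 0.0062). Mptx2 fell by 1.12 (SE 0.12), while its near copy Mptx1 rose by 2.20 (SE 0.24, adjusted p = 3.8e-07). Reg3b rose by 1.01 (SE 0.09), Reg3g by 0.83 (SE 0.07) and Dmbt1 by 0.53 (SE 0.06, adjusted p = 3.7e-07). Itln1 (0.02, 95% interval -0.08 to 0.13) and Reg4 (0.11, 95% interval -0.04 to 0.25) were not called.

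Alpha-defensin genes were higher in 5 and lower in 1 of 15 in WTCM and higher in 4 and lower in 5 in APCCM libraries on day 4. Defa24 rose in both labels (0.73 and 0.24), as did Defa30 (0.60 and 0.34), and Defa3 fell in both (-0.46 and -0.57). Reg1 rose by 0.62 in WTCM and by 0.90 in APCCM libraries. Genes for Paneth identity and secretion rose in 7 and fell in 3 of 18 in WTCM, and rose in 5 and fell in 4 in APCCM libraries, with Pla2g2a (-0.53 and -1.0) and Sox9 (-0.41 and -0.63) lower on day 4 in both. Secretory lineage transcription factors rose in 3 and fell in 8 of 15 in WTCM, and rose in 3 and fell in 9 in APCCM libraries. Creb3l1 (0.34 and 0.30) and Xbp1 (0.19 and 0.22) rose in both. Hes1, which opposes the lineage, fell in both (-0.63 and -0.65). Atoh1 fell by 0.85 in WTCM and Bhlha15 by 1.10 in APCCM libraries. The sensing genes Nfkbia (1.31 and 0.72) and Socs3 (0.76 and 0.60) rose in both labels.

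Markers of other cell types also changed with day. Enterocyte markers rose in 6 of 8 in WTCM and 3 of 8 in APCCM libraries, and none fell. Goblet markers rose in 4 and fell in 1 of 7 in WTCM libraries, with Muc2 at 1.2, and rose in 2 and fell in 2 in APCCM libraries, with Muc2 at 0.45 and Clca1 at -0.67. Enteroendocrine markers rose in 4 of 8 in both labels, with a median of 0.51 in WTCM and 0.10 in APCCM libraries, and 1 fell in APCCM libraries (Sct, -0.91). Proliferation markers fell in 3 of 4 in WTCM and 1 of 4 in APCCM libraries, and none rose. Stem cell markers fell in 1 of 6 in WTCM and in 5 of 6 in APCCM libraries. The part of these shifts in the members' change with day was not tested.

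The change with day differed between the labels for 6 members by the test of the interaction itself, against 2.13% of all genes called (0.884% higher, 1.24% lower). These 351 calls over all genes became 568 in a fit of the compared groups alone and 583 with the replicate block, and the same 6 members were called in both. Compared with the change in WTCM libraries, the change in APCCM libraries was lower for Mptx2 (-0.98, SE 0.16, adjusted p = 0.00091), Lyz1 (-0.74, SE 0.08), Mmp7 (-0.71, SE 0.10), Itln1 (-0.54, SE 0.07) and Ang4 (-0.44, SE 0.09, adjusted p = 0.0041), and higher for Dmbt1 (0.66, SE 0.08). Without the first WTCM library of day 4 the same 6 were called, from -0.88 for Mptx2 to 0.60 for Dmbt1. For Mptx1 (-0.05, 95% interval -0.76 to 0.67), Reg3b (0.03, -0.24 to 0.29), Reg3g (-0.17, -0.35 to 0.02) and Reg4 (-0.09, -0.29 to 0.12) no difference was called. Of the defensin genes, Defa17 (-0.56) and Defa24 (-0.48) were called, both lower. Goblet markers were lower in 3 of 7, among them Spink4 (-0.56) and Muc2 (-0.75), and stem cell markers in 1 of 6 (Olfm4, -0.61).

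Each member had its own order of groups, in which levels without and with conditioned medium stand side by side untested. Lyz1 was highest in untreated wild type (2535 ± 103 CPM, SD, n = 2), followed by APCCM on day 2 (2318 ± 71.3 CPM, n = 3). WTCM on day 4 and day 2 and APCCM on day 4 came next at 1549, 1472 and 1459 CPM and overlapped as neighbours, and untreated mutant was last at 5.84 ± 0.22 CPM (n = 2). Reg3g was highest in APCCM on day 4 (818 ± 44.3 CPM, n = 3), then APCCM on day 2 (459), WTCM on day 4 (284), WTCM on day 2 (142), untreated wild type (32.3) and untreated mutant (1.15 CPM), with no overlap between neighbours. Reg4 was 551 CPM and 512 CPM in APCCM on day 4 and day 2, which overlapped, and 205 to 259 CPM in the other 4 groups, where each group overlapped with its neighbour.

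Mmp7 stood in the order untreated mutant (536 ± 24.7 CPM, SD, n = 2), untreated wild type (134), APCCM on day 2 (115), APCCM on day 4 (66.3), WTCM on day 2 (54.7) and WTCM on day 4 (51.9 CPM), and only the last neighbours overlapped. Ang4 ran from 345 CPM in APCCM on day 2 to 216 CPM in WTCM on day 2, with untreated mutant last at 26.9 CPM. Itln1 was highest in WTCM on day 4 (1943 ± 136 CPM, n = 3) and untreated wild type (1889 CPM), which overlapped, and the other 3 conditioned medium groups lay at 1314 to 1406 CPM, overlapping as neighbours. Dmbt1 was highest in APCCM on day 4 (5637 ± 434 CPM, n = 3), while the other 3 conditioned medium groups lay at 3638 to 3980 CPM and overlapped as neighbours.

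The pentraxins differed in order. Mptx1 was highest in WTCM on day 4 (13.2 ± 2.28 CPM, SD, n = 3), then untreated wild type (4.67) and APCCM on day 4 (4.31 CPM), which overlapped, then WTCM on day 2 (2.75) and APCCM on day 2 (0.924 CPM). Mptx2 was highest in APCCM on day 2 (37.3 ± 3.30 CPM, n = 3), overlapped down to untreated wild type (28.1 CPM) and was lower in APCCM on day 4 (17.1 CPM). Reg3b ran from 57.8 CPM in APCCM on day 4 over WTCM on day 4 (41.0) and APCCM on day 2 (28.7) to untreated wild type (22.2) and WTCM on day 2 (20.8 CPM), of which the last 2 overlapped.

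Levels of different genes are compared per kilobase of exon. In untreated wild type organoids Lyz1 (2007 CPM per kilobase) and Itln1 (1655) were the highest of the 10, followed by Ang4 (411), Dmbt1 (406) and Reg4 (254), and Mptx1 was the lowest (5.85). On day 4 in conditioned medium Itln1 was first in both labels (1232 in APCCM and 1703 in WTCM) and Lyz1 second (1155 and 1226). Reg3g, with 15.3 CPM per kilobase the ninth of 10 in untreated wild type, was the sixth in all 4 conditioned medium groups, at 67.0 to 387 CPM per kilobase. The length used for Reg3g, 2114 bases, takes in an annotated transcript of 2089 bases, against 783 for the longest of Reg3b. If a shorter transcript is made, its values per kilobase would be higher, and its ranks could be too.

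Genes with the most similar pattern were sought among 13308 genes with a mean of at least 1 CPM, by the root mean square difference of centred log2 group means over the 6 groups, which all include the low untreated mutant group. Among the 10 genes themselves Ang4 and Itln1 were the closest pair (0.37) and Mmp7 and Dmbt1 the farthest (5.74). Nearest to Ang4 were Tmem139 (0.11), Cidec (0.12) and Lypd8 (0.12), and nearest to Itln1 were Gfra3 (0.09), Clps (0.10) and Neurod1 (0.11). Nearest to Lyz1 were Gm1123 (0.22), Nlrp6 (0.33) and Onecut2 (0.35), and nearest to Mmp7 were Bmp8b (0.18), Ly6d (0.18) and Zfp52 (0.19). For Reg3b the nearest was G6pc (0.25) and for Reg4 Slc39a10 (0.25). Mptx1, Reg3g and Dmbt1 had no neighbour closer than Cyp2d9 (0.55), Muc2 (0.56) and Cps1 (0.66).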

How the data were processed

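Each library's file, as deposited, lists whole, unscaled counts of reads for every Ensembl gene, followed by 5 summary lines. The tools named are HTSeq 0.6.1p1, HISAT2 2.1.0 and Trimmomatic 0.36, and the build is GRCm38, per the submitters' processing notes. Strand setting and annotation release: not given in the sources used here. Reads from antisense or overlapping genes may therefore be mixed. Per the labels' protocols, total RNA was depleted of ribosomal RNA. The summary lines, which include reads outside genes (4.78 to 19.2% of reads), stayed out of library sizes and tests. Symbols came from GENCODE M21, which holds 45229 of the 46078 identifiers (98.2%). The members and the 15 gene lists were chosen with earlier results of these data known.

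All 16 libraries entered 1 edgeR quasi-likelihood fit (edgeR 4.0.16, R 4.3.3) of 6 groups, with TMM scaling (factors 0.898 to 1.26), filterByExpr (16510 genes), 10 residual degrees of freedom, a common biological coefficient of variation of 5.96% and Benjamini-Hochberg adjustment. The standard error is the log2 fold change divided by the square root of F, and 95% intervals use the normal distribution. CPM is the count divided by the TMM-scaled library size, brought to a common total, and 3 counts in a library are worth 0.111 to 0.327 CPM. The series' design text lists other groups, and the library labels were followed. Named genes are all members, Apc and, from each list and comparison, at most the 2 called with the smallest adjusted p in each direction; other list genes (Axin2, Lgr5, the paralogs and list genes given across days) were named after their values were seen. Some genes that this rule names are not reported here. Alternatives were RLE factors, library size alone, DESeq2 1.42.0, no filter, the compared groups alone, protein-coding genes alone, a replicate block and leaving out each library. The procedure was tested on simulated data.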

Additional observations from a re-analysis of the deposited data

Results flagged for a closer look

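For 6 of the 10 genes the change from day 2 to day 4 in conditioned medium differed between APCCM and WTCM libraries. The test was the interaction term of edgeR's quasi-likelihood test, with n = 3 libraries in each of the 4 groups. It called 2.13% of all genes tested. The difference, on the log2 scale as the change in APCCM minus the change in WTCM libraries, was -0.74 for Lyz1, -0.71 for Mmp7, -0.44 for Ang4, -0.54 for Itln1, -0.98 for Mptx2 and 0.66 for Dmbt1. Lyz1, Mmp7 and Mptx2 fell with day in APCCM libraries and were not called in WTCM libraries, Ang4 fell in APCCM and rose in WTCM libraries, Itln1 rose in WTCM libraries and was not called in APCCM libraries, and Dmbt1 rose in APCCM libraries and was not called in WTCM libraries. All 6 were called in each of the 19 alternatives tried.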

How the results depend on the processing

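Of 820 recalculations of the 60 fold changes of members, 787 kept their direction and their side of the threshold, 14 passed the threshold anew, 5 lost it and 14 changed sign. The losses and 6 of the gains are given beside the results. All 14 sign changes were of values near 0 that were called neither before nor after. With library size alone Dmbt1 on day 2 went to 0.0002 between labels. With 1 library left out, Dmbt1 between labels on day 2 lay between -0.0613 and 0.0192 (0.0083 where it also changed sign), Mptx2 with day in WTCM between -0.26 and 0.02 (0.0217), Itln1 with day in APCCM between -0.0205 and 0.0633, and the interactions of Mptx1 between -0.24 and 0.35 (0.3507, 0.0273, 0.0424 and 0.0941), Reg3b between -0.10 and 0.14 (-0.0453, -0.0221, -0.0981 and -0.0547) and Reg4 between -0.16 and 0.01 (0.0108). Over all genes, the 2755 calls between labels on day 2 became 1725 to 2484 with 1 library left out (1725 without the third APCCM library of day 2), and the 351 interaction calls became 237 to 325 with 1 library left out, 568 in a fit of the compared groups alone and 583 with the replicate block; the cause was not tested. Leaving out 1 untreated library leaves 1 in its group, which is then assumed to vary like the other groups. Reg4 with day in WTCM libraries also passed the threshold with DESeq2, without a filter, in the compared groups alone and without the first WTCM library of day 2 or the second of day 4 (0.19 to 0.26), and Dmbt1 without a filter, in the compared groups alone and without the third WTCM library of day 4 (-0.20 to -0.13). Same-numbered libraries correlated by -0.08 to 0.07 in conditioned medium, with every library closest to its own number only between the days of APCCM libraries, and by -0.29 in untreated organoids, so the numbers were not taken as pairs. The replicate block called 7940 genes in the untreated comparison, and numbers crossed, an alternative added after seeing the data, 10624; apart from the calls gained for Mptx2, Reg4 and Dmbt1 it changed no member's call.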

Other observations

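Defa31, an alpha-defensin gene that failed the filter on low counts, had 1379 counts in the first APCCM library of day 2 and 0 to 2 counts in each of the other 15 libraries. None of its 50-base stretches is its own, since all of them also occur in Defa23.

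Tuft cell markers, which the account of conditioned medium leaves out, were higher in APCCM than in WTCM libraries in 1 of 5 on day 2 (Dclk1, log2 fold change 0.92) and in 3 of 5 on day 4, with Dclk1 at 0.69 and Avil at 0.45. Proliferation markers were higher in 1 of 4 on both days, where Mki67 differed by 0.15 and 0.28. Of all genes tested, 8.54% were higher in APCCM libraries on day 2 and 7.83% on day 4. Areg, which was higher in APCCM libraries on both days, fell with day in both labels, by 0.58 in WTCM and by 1.09 in APCCM libraries. Nos2 fell by 1.89 and Duox2 by 1.36 with day in APCCM libraries, and both interactions were called, at -2.34 and -1.39.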
